A study of Mus musculus with 9 samples.

Results

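The histone cluster genes are the mouse genes named after 4 histone gene clusters, with a symbol starting with Hist1h, Hist2h, Hist3h or Hist4h. They were chosen by that symbol alone, not by position, and 70 of the 38926 gene symbols in each count file matched. Transcript levels were compared in whole lumbar dorsal root ganglia, a tissue of sensory neuron cell bodies, glia, blood vessels and immune cells. There were 3 libraries from mice given cisplatin (a cumulative 40 µg into the paw), 3 from mice given oxaliplatin (a cumulative 40 µg by the same route) and 3 from mice given vehicle. All were wild-type C57BL/6 males aged 8-10 weeks, only ganglia on the treated side were taken, and each library pooled 4 animals, so variation between single animals was not measured. The labels do not give the dosing schedule, the time of collection or the composition of the vehicle.

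Most histone cluster genes are replication-dependent. Their short mRNAs carry no introns and mostly end in a conserved stem-loop in place of a poly(A) tail, are made in S phase to package new DNA, and are rapidly degraded when DNA synthesis stops. Some members also give longer, polyadenylated transcripts in cells that have left the cell cycle, and adult sensory neurons do not divide. The library kit named in the labels starts from total RNA. Tailless mRNAs can enter the libraries where RNA is not selected by its poly(A) tail, a step not described here. H2A, H2B, H3 and H4 form the nucleosome core, and H1 binds the linker DNA between nucleosomes. Cisplatin and oxaliplatin are platinum drugs that bind DNA and cause sensory neuropathy. Cisplatin carries ammine and chloride ligands, whereas oxaliplatin carries a diaminocyclohexane and an oxalate ligand.

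Of the 70 members, 59 were measurable, defined as 3 or more counts in at least 3 libraries, and 56 passed the count filter of the fit and were tested. Every tested member had at least 3 counts in every library, and counts of calls below cover these 56 and not the whole set, since a member measured only where it is high would have had to differ. By class, 5 of 6 H1, 14 of 20 H2A, 16 of 19 H2B, 11 of 12 H3 and all 13 H4 genes were measurable. Of the 11 others, 7 were at 0 in all 9 libraries, namely Hist1h2aa, Hist1h2ao, Hist1h2ap, Hist1h2bq, Hist1h2br, Hist2h2aa1 and Hist2h3c1. Just inside the limit, Hist1h4n had 3, 4 and 3 counts with cisplatin, 0, 6 and 0 with oxaliplatin and 0, 4 and 2 with vehicle. Just outside it, Hist1h1t, the testis-specific linker histone, had 0, 2 and 6 counts with cisplatin, 0, 4 and 0 with oxaliplatin and 0, 1 and 2 with vehicle. Hist1h2al, Hist1h4m and Hist1h4n were measurable but too low to be tested, and Hist1h2aj, Hist1h2ba and Hist2h2aa2 had at most 7 counts in any library.

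Measurability was lowest where little of a gene's sequence is its own. A read was taken as placeable when its 75 bases occur in no other annotated gene, apart from genes that share exonic bases with the member. Windows shared with such an overlapping gene therefore count as unique. Reads that aligned to several places had been assigned to no gene. Of 13 members with under 20% unique windows, 6 were measurable and 5 were at 0 in every library. All 15 members with 20 to 50% and 38 of the 42 with over 50% were measurable. Of those 42, 2 were at 0 in every library, so few unique windows do not account for every missing member. Values of genes with few unique windows rest on part of the transcript and are uncertain: Hist1h3h had 6.53% unique windows and Hist1h2ah 9.97%, against 93.3% for Hist1h1c and 100% for Hist1h1a. Exonic bases of 26 members are shared with another annotated gene, which is present in the files for 11 of them, and the strand setting of the counting is not given in the sources used here. For Hist1h1e and Hist1h2be, which share bases with each other, and for Hist3h2a, which shares bases with Trim17, the source of a shared read cannot be told apart.

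**Figure D1:**
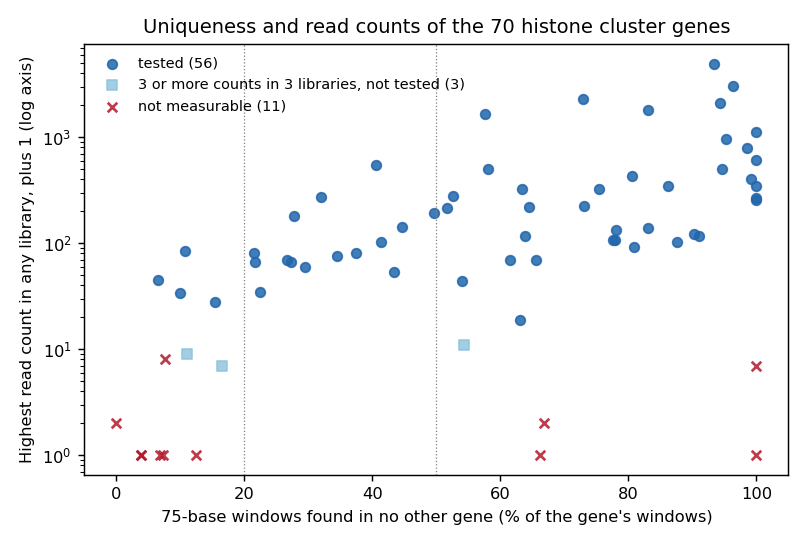
The x axis gives the percentage of a gene's 75-base windows found in no other annotated gene, apart from genes sharing its exonic bases. The y axis gives the highest read count in any of the 9 libraries plus 1, on a log scale. Each point is 1 of the 70 members and the dotted lines mark 20% and 50%. The 7 members at 0 in all libraries lie on the bottom line, 5 of them under 20% unique.

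The stem-loop is shown because it marks the tailless histone mRNA and because its place in the annotated transcript was used to group the members below. A 16-base pattern, GG, any 2 bases, CTTTT, any base, AG, any 2 bases and CC, was found in a GENCODE M21 transcript of 44 of 70 members (62.9%) and of 89 of all 55341 genes (0.161%). In the transcript used per gene it occurred in 6 forms. In the lines below the paired stem is in capitals and the loop and flanks are in lower case, 5′ to 3′ on the strand of the gene, as DNA letters.
Hist1h3b: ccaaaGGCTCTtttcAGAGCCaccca
Hist1h2bb: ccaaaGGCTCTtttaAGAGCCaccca
Hist2h2ac: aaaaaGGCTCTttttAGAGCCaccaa
Hist1h4d: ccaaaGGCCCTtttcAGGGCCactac
Hist1h4b: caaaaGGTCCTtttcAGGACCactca
Hist2h4: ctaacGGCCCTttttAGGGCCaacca
The first form, at chr13:23752820-23752835 on the plus strand (GRCm38) in Hist1h3b, was shared by 25 members of classes H1, H2A, H2B and H3. The forms of Hist1h4d (chr13:23581950-23581965, plus strand), Hist1h4b and Hist2h4 occurred in 7, 2 and 2 members, all of class H4. The form of Hist1h2bb occurred in 6 members and that of Hist2h2ac in 1.

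The libraries held 31971613 to 38168902 gene reads with cisplatin, 35520144 to 38808509 with oxaliplatin and 22819185 to 32022672 with vehicle. The limit of 3 counts corresponded to 0.0711 to 0.188 CPM (counts scaled by library size with TMM factors). Vehicle library 2 stood apart from the others, with 51.0% multimapped reads and a TMM scaling factor of 0.700. The other 8 had 25.9 to 33.8% and factors of at least 0.960. The factors also separated by group, at 1.037 to 1.091 with cisplatin, 1.049 to 1.104 with oxaliplatin and 0.700 to 0.961 with vehicle. Every comparison with vehicle carries this difference, and its source was not tested. Among uniquely aligned reads, 18.6 to 19.1% with cisplatin, 16.6 to 17.8% with oxaliplatin and 26.2 to 47.7% with vehicle lay outside annotated genes. All 10 sensory neuron markers listed were detected in every library, with summed levels of 11250 to 12420 CPM with cisplatin, 11780 to 12200 with oxaliplatin and 11750 to 12190 with vehicle. In whole ganglia, fewer cells of a type and less RNA per cell cannot be told apart.

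Histone cluster transcripts were higher with both drugs than with vehicle. Together the 70 members made up 0.0597 to 0.0717% of gene reads with cisplatin, 0.0581 to 0.0691% with oxaliplatin and 0.0354 to 0.0399% with vehicle, and no drug library overlapped a vehicle library. On the scaled level the sum was 657, 638 and 576 CPM in the cisplatin libraries, 554, 626 and 635 CPM in the oxaliplatin libraries, and 411, 506 and 415 CPM in the vehicle libraries. On this TMM scale vehicle library 2 was the highest vehicle library, also for 49 of the 56 tested members, but by its share of gene reads (0.0354%) it was the lowest of the 3, so its rank depends on the scaling. Oxaliplatin library 1 was the lowest oxaliplatin library on both scales, and on the TMM scale for 49 tested members.

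With cisplatin 46 of the 56 tested members rose against vehicle and 0 fell, in edgeR's quasi-likelihood test at a Benjamini-Hochberg adjusted p under 0.05. Over all 17348 genes tested, 15.8% were called higher and 22.9% lower. With oxaliplatin 33 members rose and 0 fell, where 17.5% of all genes were called higher and 24.1% lower. The median log2 fold change of the tested members was 0.84 with cisplatin and 0.64 with oxaliplatin, and it was 0.00 for all genes in each comparison. At least 2-fold and called were 21 members with cisplatin (1.76% of all genes) and 6 with oxaliplatin (1.42% of all genes). The groups did not overlap, with the drug higher, for 43 members with cisplatin (21.3% of all genes) and 25 with oxaliplatin (23.1% of all genes). Both comparisons use the same 3 vehicle libraries. Of the 46 members called with cisplatin, 33 were also called with oxaliplatin, and the other 13 had log2 fold changes of 0.36 to 0.98 with oxaliplatin at adjusted p = 0.0514 to 0.262.

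The counts of calls depended on single libraries. With cisplatin, 32 members were called without vehicle library 1 (10.9% of all genes), 33 without vehicle library 3 (12% of all genes) and 48 without vehicle library 2 (19.2% of all genes). With oxaliplatin, 20 were called without vehicle library 1 (12.8% of all genes), 21 without oxaliplatin library 2 (11.1% of all genes), 22 without vehicle library 3 (13.8% of all genes), 22 without oxaliplatin library 3 (11.3% of all genes), 39 without vehicle library 2 (20.4% of all genes) and 42 without oxaliplatin library 1 (20% of all genes). In none of these fits was a member called lower.

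**Figure D2:**
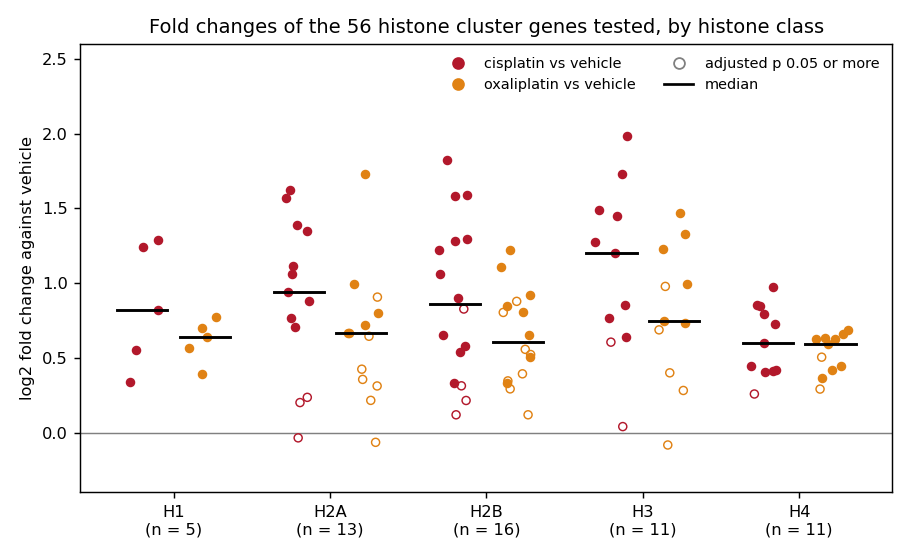
The y axis gives the log2 fold change against vehicle and the x axis the histone class; each point is 1 of the 56 tested members, filled where its adjusted p is under 0.05, and black bars are medians. The cisplatin medians lie between 0.60 for H4 and 1.20 for H3, and the oxaliplatin medians between 0.60 and 0.75.

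All 5 tested linker histone H1 genes rose with each drug. The class counts here and below stand beside 15.8% of all genes called higher with cisplatin and 17.5% with oxaliplatin. Hist1h1c, which encodes a linker histone abundant in many somatic cells and had the most reads of all members, measured 114, 116 and 108 CPM with cisplatin, 114, 117 and 121 CPM with oxaliplatin, and 86.5, 93.0 and 88.7 CPM with vehicle. All 6 drug libraries lay above all 3 vehicle libraries. The log2 fold change was 0.34 with cisplatin (SE 0.05, edgeR adjusted p = 0.000312) and 0.39 with oxaliplatin (SE 0.05, adjusted p = 9.77e-05).

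Hist1h1a, a linker histone known from dividing and germ cells, measured 8.26, 8.41 and 6.83 CPM with cisplatin, 4.08, 6.09 and 5.96 CPM with oxaliplatin, and 3.07, 4.76 and 2.57 CPM with vehicle. Every cisplatin library lay above every other library, while oxaliplatin library 1 lay below vehicle library 2. The log2 fold change was 1.24 with cisplatin (SE 0.21, interval 0.79 to 1.69, edgeR adjusted p = 0.000674) and 0.70 with oxaliplatin (SE 0.21, interval 0.24 to 1.16, adjusted p = 0.0197). The oxaliplatin call was lost without vehicle library 1 (adjusted p = 0.0703), vehicle library 3 (0.106), oxaliplatin library 2 (0.0730) or oxaliplatin library 3 (0.0683). Hist1h1b, another replication-dependent linker histone, had a log2 fold change of 1.29 with cisplatin and 0.77 with oxaliplatin. Hist1h1d changed by 0.82 with cisplatin and 0.64 with oxaliplatin, and Hist1h1e by 0.55 with cisplatin and 0.57 with oxaliplatin.

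Of 13 H2A genes, 10 rose with cisplatin and 5 with oxaliplatin. Hist1h2ak measured 5.33, 5.38 and 4.57 CPM with cisplatin, 3.32, 4.24 and 5.05 CPM with oxaliplatin, and 2.74, 2.69 and 2.54 CPM with vehicle. The vehicle libraries were close together and below all 6 drug libraries, at log2 fold changes of 0.94 (SE 0.16, edgeR adjusted p = 0.000696) with cisplatin and 0.66 (SE 0.16, adjusted p = 0.00583) with oxaliplatin. Hist1h2an, of which 15.4% of windows are unique, gave the highest log2 fold change of any member with oxaliplatin. It had 23, 17 and 18 counts with cisplatin, 16, 27 and 24 with oxaliplatin and 5, 3 and 4 with vehicle, so its log2 fold changes of 1.62 with cisplatin (interval 0.76 to 2.48) and 1.73 with oxaliplatin (interval 0.89 to 2.57) rest on few reads.

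Hist1h2ae changed by 0.88 with cisplatin and did not pass with oxaliplatin (0.36, edgeR adjusted p = 0.262).

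Hist3h2a passed with neither drug. It was singled out after its values were seen, and it measured 9.12, 9.55 and 8.53 CPM with cisplatin, 8.82, 9.48 and 8.34 CPM with oxaliplatin, and 8.88, 9.46 and 9.56 CPM with vehicle. The 3 groups overlapped, at log2 fold changes of -0.04 with cisplatin (interval -0.21 to 0.14) and -0.06 with oxaliplatin (interval -0.24 to 0.11), neither called. The direction depends on the scaling: with library totals the values were 0.26 with cisplatin and 0.24 with oxaliplatin, and without vehicle library 2 as well 0.13 with cisplatin and 0.11 with oxaliplatin. Its transcript is annotated to run 1643 bases past the stem-loop. Hist1h2ac and Hist2h2ab did not pass with either drug, Hist1h2ac being at 0.20 with cisplatin and 0.31 with oxaliplatin and Hist2h2ab at 0.24 with cisplatin and 0.22 with oxaliplatin.

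Of 16 H2B genes, 12 rose with cisplatin and 8 with oxaliplatin. The 16 include Hist3h2bb-ps, an annotated processed pseudogene, which was among those called with cisplatin. Hist1h2bm measured 3.79, 3.33 and 3.03 CPM with cisplatin, 1.55, 3.03 and 2.69 CPM with oxaliplatin, and 0.900, 1.69 and 0.975 CPM with vehicle. All cisplatin libraries lay above all vehicle libraries, whereas oxaliplatin library 1 lay below vehicle library 2. The log2 fold change was 1.58 with cisplatin (SE 0.28, edgeR adjusted p = 0.000905) and 1.11 with oxaliplatin (SE 0.28, adjusted p = 0.00836).

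Hist1h2bb measured 9.03, 7.79 and 7.04 CPM with cisplatin, 4.82, 7.08 and 6.50 CPM with oxaliplatin, and 2.96, 4.63 and 2.99 CPM with vehicle, with no overlap between drug and vehicle libraries, at log2 fold changes of 1.22 with cisplatin and 0.85 with oxaliplatin, both called. Hist2h2bb measured 26.9, 27.1 and 23.5 CPM with cisplatin, 23.6, 25.5 and 28.4 CPM with oxaliplatin, and 16.3, 18.4 and 15.1 CPM with vehicle, and rose by 0.65 with each drug (SE 0.09 each). Hist1h2bk, of which 27.4% of windows are unique, rose by 1.82 with cisplatin and did not pass with oxaliplatin (0.88, edgeR adjusted p = 0.0853). Hist1h2bc, the H2B gene with the most reads, measured 56.7, 50.4 and 49.1 CPM with cisplatin, 51.2, 54.6 and 50.3 CPM with oxaliplatin, and 48.5, 48.2 and 47.0 CPM with vehicle. The drug libraries lay just above the vehicle libraries, and the difference did not pass with either drug (0.12 each, adjusted p = 0.142 with cisplatin and 0.136 with oxaliplatin). Hist2h2be, Hist3h2ba and Hist1h2bp did not pass either, at 0.21, 0.31 and 0.83 with cisplatin and 0.29, 0.35 and 0.56 with oxaliplatin.

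**Figure D3:**
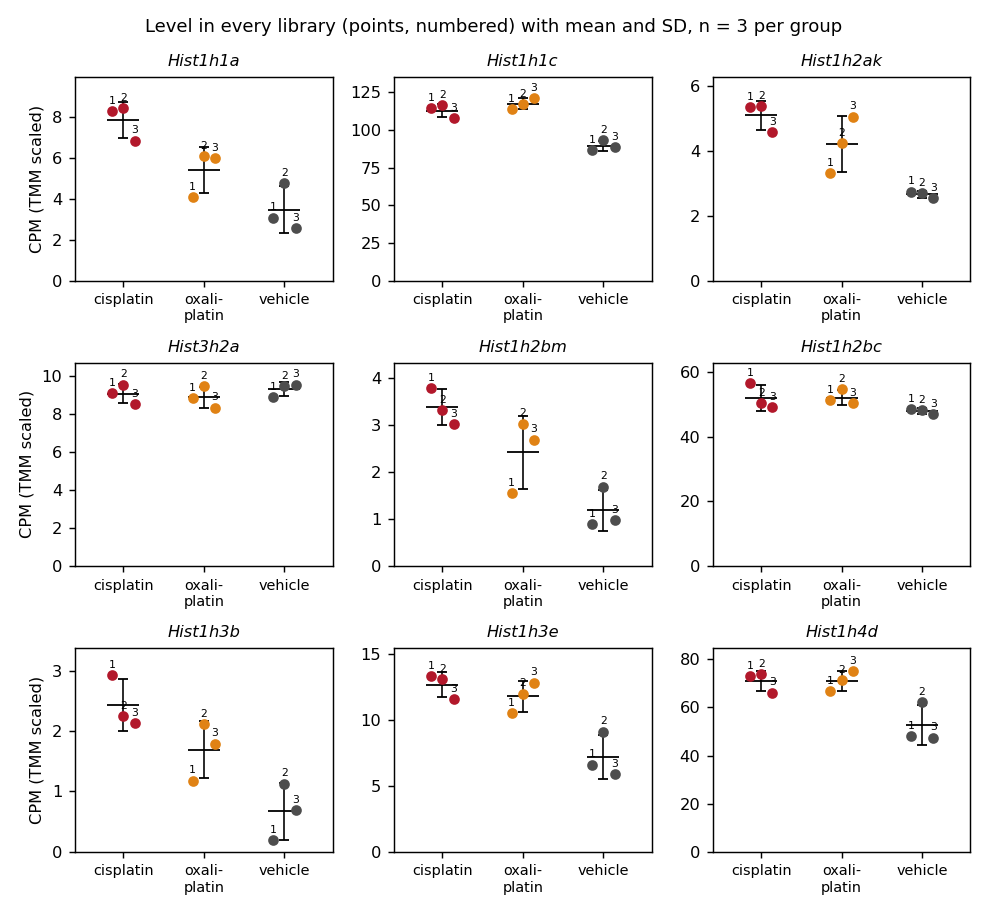
Each panel gives 1 member, with CPM scaled by TMM on a linear y axis from 0; points are the libraries, numbered within their group, and black bars the mean and SD of 3 libraries. Hist1h1a, Hist1h2bm and Hist1h3b step down through cisplatin, oxaliplatin and vehicle means, the drug libraries of Hist1h1c and Hist1h4d lie above their vehicle libraries, and those of Hist3h2a overlap them.

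Of 11 H3 genes, 9 rose with cisplatin and 6 with oxaliplatin. Hist1h3b measured 2.92, 2.24 and 2.13 CPM with cisplatin, 1.18, 2.11 and 1.79 CPM with oxaliplatin, and 0.187, 1.13 and 0.683 CPM with vehicle. No drug library overlapped a vehicle library, but the vehicle values rest on only 5, 18 and 21 counts. Its log2 fold change of 1.98 with cisplatin (SE 0.39, interval 1.14 to 2.83, edgeR adjusted p = 0.00187) was the highest of all members, and with oxaliplatin it was 1.47 (SE 0.40, interval 0.60 to 2.34, adjusted p = 0.0116).

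Hist1h3e, with more reads, measured 13.3, 13.1 and 11.5 CPM with cisplatin, 10.5, 12.0 and 12.8 CPM with oxaliplatin, and 6.60, 9.08 and 5.85 CPM with vehicle. All drug libraries lay above the vehicle libraries, at log2 fold changes of 0.85 with cisplatin (SE 0.14) and 0.75 with oxaliplatin (SE 0.14), both called. Hist1h3a changed by 1.73 with cisplatin and 0.99 with oxaliplatin, and the call with oxaliplatin was lost without vehicle library 1 (0.91, edgeR adjusted p = 0.0514). Hist2h3c2, also singled out after its values were seen, did not pass, at 0.04 with cisplatin and -0.08 with oxaliplatin, and both signs turned under other settings (-0.15 with cisplatin after removal of the length and GC trend described below, 0.21 with oxaliplatin with library totals). Hist1h3d did not pass either, at 0.61 with cisplatin and 0.28 with oxaliplatin.

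Of 11 H4 genes, 10 rose with cisplatin and 9 with oxaliplatin. Hist1h4d, second of all members in reads, measured 73.2, 73.8 and 66.2 CPM with cisplatin, 66.7, 71.4 and 75.2 CPM with oxaliplatin, and 48.1, 62.3 and 47.5 CPM with vehicle. All drug libraries lay above the vehicle libraries, of which library 2 was nearest. The log2 fold change was 0.44 with each drug (SE 0.09 each, edgeR adjusted p = 0.00290 with cisplatin and 0.00254 with oxaliplatin). Hist1h4c changed by 0.60 with cisplatin and 0.63 with oxaliplatin, and Hist1h4h by 0.40 with cisplatin and 0.42 with oxaliplatin. Hist4h4 changed by 0.41 with cisplatin and 0.62 with oxaliplatin, and its cisplatin call was lost without vehicle library 3 (0.30, edgeR adjusted p = 0.0743). Hist1h4i, at 0.26 with cisplatin and 0.29 with oxaliplatin, did not pass.

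Per kilobase of exon, Hist1h4h averaged 74.2 CPM per kilobase over the 9 libraries, Hist1h1c 68.3, Hist2h2bb 59.7, Hist1h4d 57.05, Hist1h2bc 43.8 and Hist1h4c 43.6. Multimapped reads were not counted, so this level is understated by an unknown amount where fewer windows are unique (57.6% in Hist1h4h, 72.9% in Hist1h2bc, 100% in Hist2h2bb), and no order is read from it. The 6 members with the most reads held 57.3 to 59.1% of all member reads with cisplatin, 59.7 to 62.8% with oxaliplatin and 60.2 to 64.5% with vehicle. With cisplatin the median log2 fold change was 1.28 among the tested members lowest in mean CPM, 0.82 in the middle and 0.55 among the highest, in 3 groups of near-equal size. With oxaliplatin these medians were 0.88, 0.56 and 0.62.

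Cisplatin was set against oxaliplatin at the same cumulative dose by mass. In edgeR 0 of the 56 members were called in either direction, where 0.0115% of all genes were called higher with cisplatin and 0% lower, and the smallest adjusted p was 0.600. None was called and at least 2-fold higher (0.00576% of all genes), and 0 were called higher after removal of the length and GC trend described below (0.00611% of all genes) or without vehicle library 2 (0.0113% of all genes). At an unadjusted p under 0.05 cisplatin was higher for 9 members (4.35% of all genes) and lower for 0 (2.05% of all genes). At the adjusted threshold DESeq2 called 0 members higher (0.0576% of all genes), and limma-voom 0 (0.00576% of all genes). The median log2 fold change was 0.20, and it lay above 0 for 42 of the 56 members. Without oxaliplatin library 1 this median was 0.09, and without cisplatin library 3 it was 0.25.

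For Hist1h1a the difference was 0.54 (interval 0.15 to 0.94, edgeR adjusted p = 0.696), with all 3 cisplatin libraries above all 3 oxaliplatin libraries. Hist1h3a was at 0.73 (interval 0.29 to 1.18), Hist1h2bk at 0.94 (interval 0.31 to 1.57) Hist1h2ag at 0.73 (interval 0.21 to 1.25) and Hist1h2ae at 0.53 (interval 0.08 to 0.98), also with no overlap, as for 11 members in all (8.04% of all genes), while 0 members lay wholly lower with cisplatin (6.1% of all genes). For abundant members the intervals were narrow: -0.16 to 0.05 for Hist1h1c, -0.20 to 0.19 for Hist1h4d and -0.13 to 0.13 for Hist1h2bc. Intervals reached 0.39 to either side of the estimate in the median member and between 0.11 and 1.08 over the 56.

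The members were next grouped by where their annotated transcript ends. Of the tested members, 15 end within 100 bases of the stem-loop, as the tailless mRNA does, and 20 run more than 100 bases past it. The other 21 have no stem-loop in the annotated transcript used per gene. Some of these transcripts are annotated short, at 312 bases for Hist1h4k and 393 for Hist1h2ak. A stem-loop past the annotated end or in another transcript of the gene would be missed. The third group is therefore not a set of genes known to lack the stem-loop. With cisplatin all 15 of the first group, 14 of the second and 17 of the third rose, with median log2 fold changes of 1.22, 0.49 and 0.94. With oxaliplatin 9, 13 and 11 rose, with medians of 0.80, 0.42 and 0.66. Over all genes 15.8% were called higher with cisplatin and 17.5% with oxaliplatin. Between the drugs, cisplatin against oxaliplatin, the medians were 0.47, 0.03 and 0.24. These differences between groups were not tested, and the counts do not show which form of a transcript a read came from. The end groups were not matched for the share of unique windows, along which the medians also differed. With cisplatin they were 1.42 for the 4 tested members under 20%, 1.115 for 15 at 20 to 50% and 0.65 for 37 over 50%. With oxaliplatin they were 1.12, 0.80 and 0.60.

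**Figure D4:**
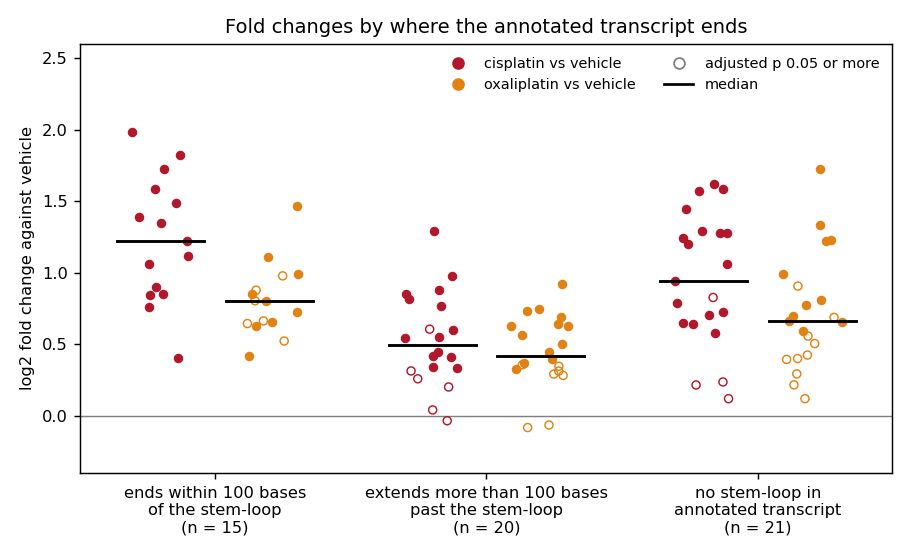
The y axis gives the log2 fold change against vehicle and the x axis the 3 groups by annotated transcript end; each point is a tested member, filled where called, and black bars are medians. The cisplatin medians are 1.22, 0.49 and 0.94 from left to right, and Hist1h3b at 1.98 is the top point of the first group.

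Fold changes against vehicle depended on transcript length across all genes, and histone mRNAs are short. Among the 3278 tested genes with the shortest exons (57 to 2012 bases), which include 50 of the 56 members, 25.6% were called higher with cisplatin and 27.7% with oxaliplatin, and 0.0305% with cisplatin against oxaliplatin. Their median log2 fold change was 0.18 with cisplatin and 0.19 with oxaliplatin, and that of the 3277 genes with the longest exons was -0.25 in each comparison. After each library's trend with exon length and GC content was removed, 38 members rose with cisplatin (16% of all genes) and 19 with oxaliplatin (17.6% of all genes), with medians of 0.62 with cisplatin and 0.40 with oxaliplatin, and 0 fell. In that fit the medians of the 3 end groups were 0.94, 0.36 and 0.68 with cisplatin and 0.55, 0.25 and 0.37 with oxaliplatin.

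Single members changed in that fit as well. Hist1h3b kept log2 fold changes of 1.74 with cisplatin and 1.23 with oxaliplatin, and Hist1h2bm 1.32 with cisplatin and 0.83 with oxaliplatin, all called. Hist1h1c was at 0.14 with cisplatin and 0.18 with oxaliplatin and Hist1h4d at 0.25 with cisplatin and 0.26 with oxaliplatin, still called but smaller than above. Hist1h4h (0.15, edgeR adjusted p = 0.0534), Hist1h1a (0.42, adjusted p = 0.0717) and Hist1h2ak (0.37, adjusted p = 0.0664) were no longer called with oxaliplatin. Hist1h1d, whose annotated exons span 7425 bases, was higher there, at 1.06 with cisplatin and 0.95 with oxaliplatin. With library totals in place of TMM, 52 members were called higher with cisplatin (34.5% of all genes) and 52 with oxaliplatin (36.9% of all genes), while the median of all genes moved to 0.29 with cisplatin and 0.30 with oxaliplatin.

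By position, the 56 Hist1h members are on chromosome 13, and 45 of them were tested, with median log2 fold changes of 0.94 with cisplatin and 0.66 with oxaliplatin. The 7 tested members on chromosome 3 had medians of 0.42 with cisplatin and 0.37 with oxaliplatin, the 3 on chromosome 11 had medians of 0.31 with cisplatin and 0.35 with oxaliplatin, and Hist4h4 is the 1 member on chromosome 6. Hist1h2al, an annotated processed pseudogene that was not tested, lies at chr13:51202727-51203065 (GRCm38), outside the cluster that holds the other Hist1h members. There are 14 pairs of an H2A and an H2B gene, pseudogenes included, that lie head to head within 500 bases of each other. In 10 pairs both partners were tested. Both rose in 6 pairs with cisplatin and in 1 with oxaliplatin. Counted singly and not as pairs, 15.8% of all genes were called higher with cisplatin and 17.5% with oxaliplatin. In Hist1h2ak and Hist1h2bn, 296 bases apart, the log2 fold changes with cisplatin were 0.94 and 1.28. In the pseudogene Hist3h2bb-ps and Hist3h2a, 173 bases apart, they were 0.58 and -0.04.

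Promoters are printed because many members rose in the same libraries and histone promoters are known for shared elements upstream of the start. Of the 70 members, 60 matched a RefSeq promoter window (GRCm38.p6, 250 bases before to 50 after the start). CCAAT, on either strand, was found in 51 of the 60 windows (85%) against 37.4% of all 32851 windows, and in 3 of 12 H4 windows but all 48 others. TATAAA was found in 34 (56.7%) against 13.6% of all windows. The octamer ATTTGCAT was found in 7 of 17 H2A and 6 of 16 H2B windows and in none of the other members, against 1.74% of all windows. Windows of head-to-head H2A and H2B genes can overlap, so 1 element can be counted for both genes. Hist1h2ae and Hist1h2bg share an octamer and a TATAAA in this way, so these are counts of windows and not of separate elements. AAACACA was found in 4 of 5 H1 windows and 8 member windows in all (13.3%), against 7.18% of all windows. Each line gives the 150 bases before the start on the strand of the gene, with matches to these elements in either orientation in capitals.
Hist1h1b: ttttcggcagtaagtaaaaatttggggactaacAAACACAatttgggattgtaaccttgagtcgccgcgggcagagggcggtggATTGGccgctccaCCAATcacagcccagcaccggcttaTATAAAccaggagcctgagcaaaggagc
Hist1h2bb: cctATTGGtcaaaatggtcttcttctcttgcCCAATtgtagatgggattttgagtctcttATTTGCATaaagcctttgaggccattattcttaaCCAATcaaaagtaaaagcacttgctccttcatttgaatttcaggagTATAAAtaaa
Hist1h3e: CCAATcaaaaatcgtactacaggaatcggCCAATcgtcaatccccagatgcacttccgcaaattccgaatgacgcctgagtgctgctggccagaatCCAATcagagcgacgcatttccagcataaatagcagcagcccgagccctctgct
Hist1h4d: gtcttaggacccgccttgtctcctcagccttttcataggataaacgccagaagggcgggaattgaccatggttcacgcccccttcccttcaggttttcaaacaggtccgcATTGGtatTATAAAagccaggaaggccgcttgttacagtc
Hist3h2a: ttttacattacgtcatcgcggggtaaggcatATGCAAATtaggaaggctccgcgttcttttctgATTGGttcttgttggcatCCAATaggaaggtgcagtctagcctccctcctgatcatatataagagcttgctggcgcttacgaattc
These lie at chr13:21780626-21780775 (minus strand), chr13:23746584-23746733 (plus), chr13:23562386-23562535 (minus), chr13:23581418-23581567 (plus) and chr11:58954535-58954684 (plus). Hist1h1b, Hist1h2bb, Hist1h3e and Hist1h4d rose with both drugs, at 1.29, 1.22, 0.85 and 0.44 with cisplatin. Hist3h2a, at -0.04, holds CCAAT and the octamer as Hist1h2bb does, but not the TATAAA of Hist1h2bb. A link between these elements and the fold changes was not tested. A match describes the letters in the window and no binding was measured.

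Other genes of histone supply were read from lists, in the same fit. Over all genes tested, 15.8% were called higher and 22.9% lower with cisplatin, and 17.5% higher and 24.1% lower with oxaliplatin. Every list count below is to be read beside these shares. Replacement histones lie outside the clusters and are in general made outside S phase as well, from polyadenylated mRNAs. This need not hold for every gene of the list, which includes H2afx and Cenpa. Of the 12 listed, 6 were higher and 1 lower with cisplatin, and 3 higher and 1 lower with oxaliplatin. Their medians were 0.20 with cisplatin and 0.17 with oxaliplatin. H1f0, a linker histone of differentiated cells, averaged 89.0 ± 2.94 CPM with cisplatin, 94.5 ± 0.623 with oxaliplatin and 68.9 ± 4.03 with vehicle (SD, n = 3 each), and rose by 0.37 with cisplatin and 0.46 with oxaliplatin. H2afy, which encodes macroH2A, rose by 0.23 with cisplatin and 0.28 with oxaliplatin.

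Of 18 factors for histone mRNA transcription, end processing and decay, 1 rose and 6 fell with cisplatin, and 2 rose and 5 fell with oxaliplatin. Over all genes 22.9% were called lower with cisplatin and 24.1% with oxaliplatin, and 54.3% and 54.5% among the fifth with the longest exons. Npat, the coactivator of histone genes in S phase, averaged 27.0 ± 1.74 CPM with cisplatin, 26.0 ± 1.24 with oxaliplatin and 34.8 ± 1.03 with vehicle, and fell, at log2 fold changes of -0.36 with cisplatin and -0.42 with oxaliplatin. Upf1, a helicase that takes part in histone mRNA decay, was at -0.67 with cisplatin and -0.56 with oxaliplatin. Of 20 histone chaperones, 3 rose and 6 fell with cisplatin, and 3 rose and 7 fell with oxaliplatin. Atrx, which helps deposit a replacement H3, was at -0.58 with cisplatin and -0.53 with oxaliplatin, and at 0.07 with cisplatin and 0.16 with oxaliplatin after removal of the length and GC trend.

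Of 25 genes of DNA replication and S phase, 10 rose and 3 fell with cisplatin, and 3 rose and 2 fell with oxaliplatin. Their medians were 0.24 with cisplatin and 0.12 with oxaliplatin. Over all genes 15.8% were called higher and 22.9% lower with cisplatin, and 17.5% and 24.1% with oxaliplatin. Ccna2, the S phase and G2 cyclin, averaged 3.92 ± 0.378 CPM with cisplatin, 2.91 ± 0.220 with oxaliplatin and 2.16 ± 0.168 with vehicle, and rose by 0.88 with cisplatin and 0.44 with oxaliplatin. E2f1, a transcription factor of S phase genes, fell with cisplatin (-0.27) and did not pass with oxaliplatin (-0.17), while with library totals its cisplatin value was 0.02. Of 18 genes of mitosis, 12 rose with cisplatin and 5 with oxaliplatin, with medians of 0.69 with cisplatin and 0.38 with oxaliplatin and none lower. Top2a, the topoisomerase of dividing cells, averaged 10.7 ± 1.23 CPM with cisplatin, 8.27 ± 1.11 with oxaliplatin and 5.52 ± 0.539 with vehicle, and rose by 0.97 with cisplatin and 0.60 with oxaliplatin.

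Markers of blood and immune cells, some of which divide, moved in the same libraries. Their lists, like the others, were chosen with earlier results of these data known. All 14 neutrophil and myeloid precursor markers rose with cisplatin (15.8% of all genes) and 11 with oxaliplatin (17.5% of all genes). The medians of these markers were 1.66 with cisplatin and 1.20 with oxaliplatin. Their summed level was 185 to 294 CPM with cisplatin, 98.3 to 221 with oxaliplatin and 48.0 to 112 with vehicle. Of 8 erythroid markers tested, 7 rose with cisplatin and 6 with oxaliplatin, with sums of 101 to 219 CPM with cisplatin, 86.6 to 212 with oxaliplatin and 40.6 to 58.1 with vehicle. Of 9 macrophage markers tested, 8 rose with cisplatin and 7 with oxaliplatin, with sums of 136 to 166 CPM with cisplatin, 145 to 158 with oxaliplatin and 91.3 to 126 with vehicle. No tested marker of these lists was at 0 in any library. On the TMM scale, oxaliplatin library 1 was the lowest oxaliplatin library for the neutrophil and erythroid sums. Cisplatin library 3 was the lowest cisplatin library for these sums, and vehicle library 2 the highest vehicle library. The same held for the summed histone level on that scale, where the rank of vehicle library 2 depends on the scaling. These ranks were not particular to blood cell markers. The mitosis and S phase sums had them too, and the sensory neuron sum had the opposite rank in each of these libraries. The macrophage sum also had cisplatin library 3 lowest and vehicle library 2 highest. Its lowest oxaliplatin library was library 2, at 145 CPM against 147 in library 1. The part of these markers in the histone result was not tested. Sensory neuron markers had 1 of 10 higher and 2 lower with each drug, satellite glia markers 2 of 7 higher and 1 lower with cisplatin and 1 and 1 with oxaliplatin, and myelinating Schwann cell markers 7 of 7 higher with cisplatin and 3 with oxaliplatin.

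**Figure D5:**
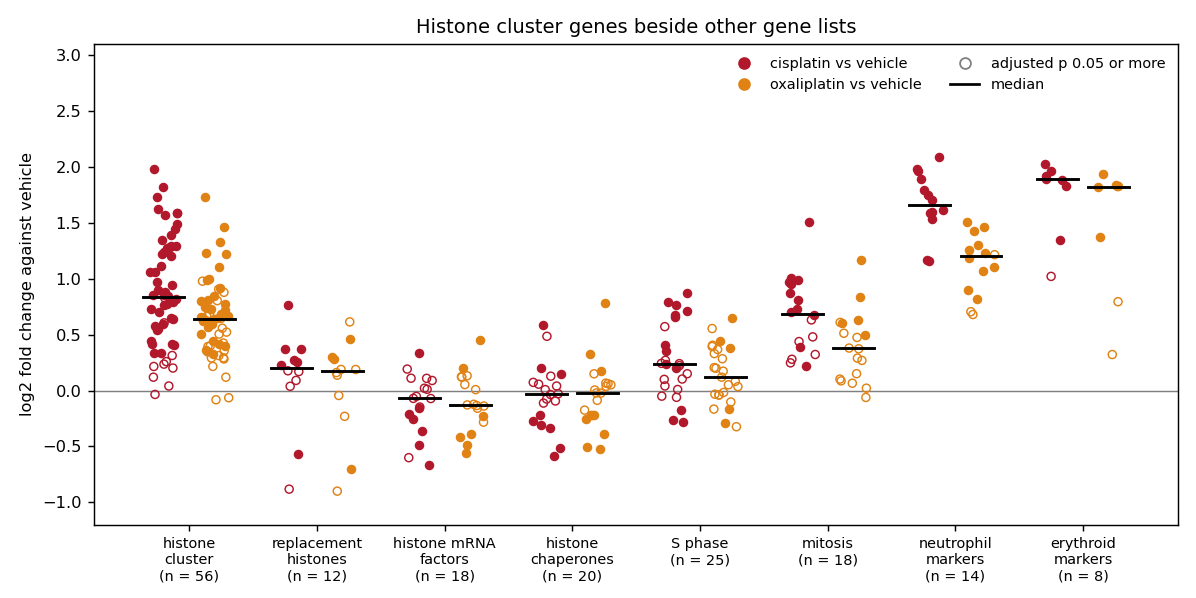
The y axis gives the log2 fold change against vehicle and the x axis 8 gene lists with the number tested; points are genes, filled where called, and black bars are medians. The histone cluster medians (0.84 with cisplatin and 0.64 with oxaliplatin) lie between those of the mitosis list (0.69 and 0.38) and the neutrophil markers (1.66 and 1.20).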

How the data were processed

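Whole dorsal root ganglia at lumbar levels 3 to 5 were sequenced as 9 libraries, 3 per group, each a pool of 4 animals. The labels do not say whether pools were made on separate days, so p-values measure the spread between these pools. The authors deposited raw read counts per gene symbol, 1 table per library. STAR, SAMtools and HTSeq with mouse build mm10 are named in the submitters' processing notes; the sources used here give no versions, strand setting or annotation. Reads without a gene (no feature, ambiguous, aligned several times and the like) were 42.8 to 74.5% of each table and stayed out of library sizes and tests.

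Counts were fitted together over all 9 libraries in edgeR 4.0.16 (R 4.3.3) with TMM scaling, its expression filter and the quasi-likelihood test. Benjamini-Hochberg adjustment covered all 17348 genes, with a threshold of 0.05. Intervals are 95%, and SD is over 3 libraries. A detection floor of 3 counts covers counting error only. Gene positions and transcripts came from GENCODE M21 (GRCm38), promoters from RefSeq (GRCm38.p6). Members that could be named were those called in any comparison, the 6 with the smallest p per comparison and the 6 with the highest mean CPM. Which of these are described at length was chosen after their values were seen, as were the uncalled members named. Genes of other lists were named from the 2 with the smallest p per comparison. The members and lists were chosen with earlier results of these data known. Alternatives were other scalings, filters and tools (DESeq2 1.42.0, limma-voom 3.58.1), a replicate block, leaving out each library and, chosen after seeing the data, removal of each library's trend with exon length and GC content (mgcv 1.9.3), and library totals without vehicle library 2.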

Additional observations from a re-analysis of the deposited data

How the results depend on the processing

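No member was called lower against vehicle, and none was called between the drugs, under any alternative run. With cisplatin 30 of the 46 members, and with oxaliplatin 18 of the 33, were called in all 21 alternatives that tested them. Leaving out each library in turn gave 32 to 48 members with cisplatin (median log2 fold change 0.71 to 1.04, the highest without vehicle library 2) and 20 to 42 with oxaliplatin (median 0.52 to 0.84). Between the drugs these fits gave a median of 0.09 to 0.25. Library totals gave medians of 1.13 with cisplatin and 0.95 with oxaliplatin and 52 members with oxaliplatin (36.9% of all genes). Library totals without vehicle library 2 gave 1.18, 0.996 and 50 (35.5% of all genes). Removal of the length and GC trend gave 0.62, 0.40 and 19 (17.6% of all genes). The replicate numbers are shared by titles only, and deviations of same-numbered libraries correlated at -0.14 to 0.11, so they were not taken as pairs. The fit with a replicate block called 45 members with cisplatin (15.5% of all genes) and 32 with oxaliplatin (17.2% of all genes), with medians of 0.83, 0.63 and, between the drugs, 0.21. Some single values changed sign, and the cause was not tested. Trend removal gave Hist1h2bc -0.0496 with cisplatin and -0.0285 with oxaliplatin, Hist2h3c2 -0.145 with cisplatin, and Atrx 0.0695 with cisplatin and 0.163 with oxaliplatin. Library totals gave Hist3h2a 0.26 with cisplatin and 0.24 with oxaliplatin, Hist2h3c2 0.21 with oxaliplatin, E2f1 0.0179 with cisplatin, and Lig1 0.00439 and Isl1 0.0855 with oxaliplatin. Without vehicle library 2 as well, these totals gave Hist3h2a 0.13 with cisplatin and 0.11 with oxaliplatin, and Hist2h3c2 0.0597 with oxaliplatin. Hist3h2a was at 0.00764 with cisplatin without a count filter. Leaving out each library in turn gave Hist3h2a -0.0738 (without cisplatin library 2) to 0.0319 (without cisplatin library 3), and Hist2h3c2 -0.0214 (without cisplatin library 2) to 0.152 (without cisplatin library 3) with cisplatin and -0.196 (without oxaliplatin library 1) to 0.0713 (without oxaliplatin library 3) with oxaliplatin. With 3 pools per group, members of few counts had wide intervals.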
